A study of Mus musculus with 6 samples.

Results

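The Hedgehog pathway genes were followed through the open chromatin of oviductal muscle. The 9 genes were the ligands Shh, Ihh and Dhh, the receptor Ptch1, the transducer Smo, the transcription factors Gli1, Gli2 and Gli3, and Hhip, which encodes a protein that binds and sequesters the ligands. Every region over a gene body with 20 kb added on each side was taken, and these loci held 70 of the 66679 regions found in either genotype. Accessibility was measured by ATAC-seq, in which the Tn5 transposase inserts sequencing adapters where DNA is open. The cells were primary smooth muscle cells taken from oviducts on day 2 of pregnancy, from mice aged 8 to 12 weeks, and plated briefly before the assay.

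There were 3 libraries labelled WT and 3 labelled Pbrm1 cKO. Per the study's methods, the Pbrm1 cKO mice carried Pbrm1 fl/fl with Cre from the progesterone receptor gene (PR-IRES-cre/+), and the controls were Pbrm1 fl/fl littermates without Cre. Cre driven in this way acts in every progesterone receptor-positive cell of the tract, not in muscle alone. Pbrm1 encodes a protein of PBAF, one form of the nucleosome-moving SWI/SNF complex, and the comparison asked how its loss changed accessibility in these cells. The deletion was not checked here, because peak lists do not report reads over the deleted exons. Whether each library came from a separate mouse was not stated in the labels, so p-values measure the spread between libraries.

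In the absence of ligand, PTCH1 keeps SMO inactive. A Hedgehog ligand bound to PTCH1 releases SMO, which stops the conversion of GLI2 and GLI3 to repressors and lets GLI proteins activate transcription. Gli1, Ptch1 and Hhip are themselves classic targets of the pathway, so they serve as readouts in many tissues. In the uterus, Ihh is an epithelial gene induced by progesterone, and the stroma below receives its signal.

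Openness was read as a rank. Each library had its own list of peaks called at a lenient threshold, and all 66679 regions were ranked in it by the −log10 p of the strongest entry over the region, rank 1 being the most open. The rank score is log2(66679 / rank), so that an increase of 1 means a rank number 2 times smaller and a score of 0 is the bottom of the list. The number of sequence tags under the strongest summit was recovered from the fold and p of that entry. It ranged from 5 to 143 over the Hedgehog regions. WT library 3 was the shallowest, with a median of 19 tags at these regions against 29 to 35 in the other libraries, and it had an entry over 95.4% of all regions against 98.9% to 99.4%. In bulk cells, fewer cells with an open site and a less open site in each cell cannot be told apart.

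Of the 70 regions 46 lay at the GLI genes, 5 of them at promoters of neighbours, and gene length differed widely. Gli3 and Gli2 span 267 and 219 kb, against 12.1 kb for Gli1, 7.39 kb for Dhh and 6.36 kb for Ihh. Per 10 kb of locus, the library lists held 1.61 intervals at Gli3 and 2.02 at Gli2. That was below Ihh (2.12), Smo (2.43), Gli1 (3.46) and Dhh (3.48), and above Shh (0.99) and Hhip (0.34), with Ptch1 at 1.92. Gli3 had 19 regions, Gli2 had 17 and Gli1 had 10, whereas Dhh and Smo had 7 each, Ptch1 had 5, Ihh had 4, Shh had 1 and Hhip had 0. Of the 70 regions, 14 lay within 1 kb of a transcription start of the gene itself, 13 at a start of a neighbouring or overlapping gene, and 43 were distal. A reproducible-peak list existed for each genotype, and 45 regions were in both, 16 in the WT list alone and 9 in the Pbrm1 cKO list alone. Among distal regions, 13 of 43 (30.2%) were in the WT list alone and 8 (18.6%) in the Pbrm1 cKO list alone. Over all 45124 distal regions of the series the shares were 15.1% and 21.4%. There was 1 list per genotype, so these counts carry no test.

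**Figure D1:**
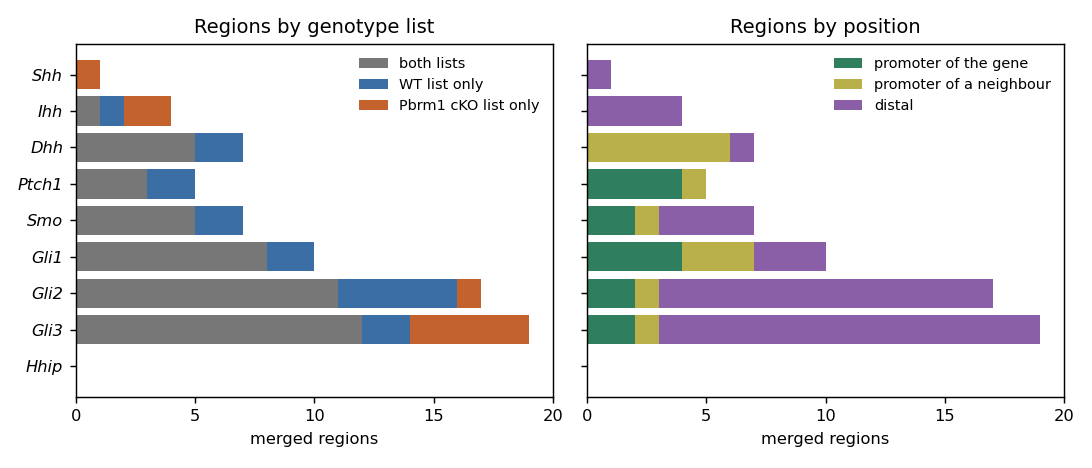
Number of merged regions at each Hedgehog locus (bars, count on the horizontal axis), split by the genotype list that held them (left) and by position (right). Gli2 and Gli3 held 17 and 19 regions, mostly distal, and Hhip held 0.

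A few stretches of sequence are shown because the results below refer to them. Each is 200 bases of the forward strand of GRCm38 around the strongest summit, and capitals mark the GLI motif GACCACCCA or the AP-1 motif TGANTCA on either strand. The first pair carry the GLI motif. They are the region 16.4 kb upstream of Smo, chr6:29718908-29719107, where it stands on the reverse strand, and the best Ptch1 promoter region, chr13:63566244-63566443, where it stands on the forward strand:
Smo upstream: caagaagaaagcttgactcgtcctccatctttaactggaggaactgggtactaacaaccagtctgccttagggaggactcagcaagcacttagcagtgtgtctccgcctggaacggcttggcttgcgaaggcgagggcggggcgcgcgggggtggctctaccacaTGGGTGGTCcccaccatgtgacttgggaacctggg
Ptch1 promoter: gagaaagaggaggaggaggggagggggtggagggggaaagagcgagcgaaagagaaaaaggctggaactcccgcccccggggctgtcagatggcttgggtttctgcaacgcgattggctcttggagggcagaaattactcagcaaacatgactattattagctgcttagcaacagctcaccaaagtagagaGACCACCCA

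The next 3 are intronic. They are the most open distal region of the pathway, in Gli2 at chr1:118976608-118976807, and a pair of Gli3 regions less than 5 kb apart. The genotype differences of that pair had opposite signs, and neither reached an adjusted p under 0.05 (limma). The pair lie at chr13:15546286-15546485 and chr13:15550845-15551044:
Gli2 intron: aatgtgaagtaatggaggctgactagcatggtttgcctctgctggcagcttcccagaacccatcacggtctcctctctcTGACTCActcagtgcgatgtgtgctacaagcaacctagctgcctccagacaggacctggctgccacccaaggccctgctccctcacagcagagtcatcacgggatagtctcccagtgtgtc
Gli3 intron, 83.1 kb: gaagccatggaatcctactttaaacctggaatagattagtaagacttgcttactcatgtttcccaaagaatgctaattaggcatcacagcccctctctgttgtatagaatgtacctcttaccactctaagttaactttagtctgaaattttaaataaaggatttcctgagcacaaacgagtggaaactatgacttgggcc
Gli3 intron, 87.8 kb: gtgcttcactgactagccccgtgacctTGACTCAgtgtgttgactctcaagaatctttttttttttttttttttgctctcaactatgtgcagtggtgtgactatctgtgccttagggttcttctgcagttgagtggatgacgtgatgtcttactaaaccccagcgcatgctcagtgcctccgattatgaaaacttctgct

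None of the 70 regions passed the threshold between genotypes (limma, adjusted p under 0.05 over all regions), against 0.069% of all regions, which is 46 regions. The smallest adjusted p by limma was 0.0902. An unadjusted p under 0.05 was reached by 15 of 70 regions (21.4%) against 15.9% over all regions, with 7 of them higher and 8 lower in Pbrm1 cKO (7.6% and 8.3% over all regions). The 3 WT and 3 Pbrm1 cKO libraries did not overlap in 14 of 70 regions (20%), against 21.4% of all regions. The median difference was −0.07 in rank score at the Hedgehog regions and 0.0010 over all regions. The sign was negative at 29 of 43 distal regions, against 48.0% of all distal regions, and at 7 of 14 promoter regions of the genes themselves, against 54.0% of all promoter regions. Of the 43 distal regions, 13 entered through the WT list alone, all negative, and 8 through the Pbrm1 cKO list alone. Entry through a single list favours the sign of that genotype, so the distal tally is not independent of how the regions were chosen. With normal scores alone, or with regions without an entry ranked just after the last alone, no Hedgehog region passed (smallest adjusted p by limma 0.119 and 0.0921). With both changes together, a setting added after seeing the data, 2.59% of all regions passed and 5 Hedgehog regions with them (limma). These were Gli3 at 87.8 and 186.3 kb, higher, and Gli3 at 83.1 kb, Gli1 at 15 kb and Smo at 16.4 kb upstream, lower. All but the Smo region entered through the list of the genotype where they ranked better, which favours a difference. The same setting without WT library 3 passed 2.93% of all regions and 7 Hedgehog regions.

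The ligand genes had little open chromatin at their own starts. Shh had a weak entry at its start in 2 of 6 libraries, WT library 1 and Pbrm1 cKO library 1, each with 6 tags. Ihh had one in 3 libraries and Dhh in 2. No ligand had a promoter region in a reproducible list, whereas 62.7% of 21951 protein-coding genes did.

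The only Shh region lay 15.9 kb from the start, downstream of the gene, at chr5:28451292-28451473. It ranked 35198, 49597 and 43294 in WT and 43178, 53996 and 61136 in Pbrm1 cKO libraries. It was in the Pbrm1 cKO list alone, yet its ranks overlapped between genotypes and its mean score was lower in Pbrm1 cKO by 0.31 ± 0.21 (SE; limma, adjusted p = 0.506).

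Ihh had 4 distal regions. The most open, 13.0 kb upstream, ranked 24373, 32094 and 17920 in WT and 28128, 17071 and 26528 in Pbrm1 cKO libraries, with full overlap. A region in the Ihh intron 2.9 kb from the start, chr1:74948717-74948852, had no entry in any WT library and ranked 47068, 55698 and 61644 in Pbrm1 cKO libraries 1, 2 and 3. The difference was 0.29 ± 0.12 (SE; limma, adjusted p = 0.229), with the WT libraries placed at the lowest rank. This region was in the Pbrm1 cKO list alone. It entered only through the genotype where it ranked better, which favours a difference and a small p. The next intronic region, 2.7 kb from the start, had entries in all 6 libraries, and Pbrm1 cKO library 1 covered both with a single entry. The whole Ihh locus held 10, 7 and 8 listed intervals in WT and 10, 12 and 12 in Pbrm1 cKO libraries, which touch at 10. The difference of 0.41 ± 0.18 in log2(intervals + 1) did not pass (limma, adjusted p = 0.578), and 0% of 19080 protein-coding loci passed, while 8.5% had an unadjusted p under 0.05.

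Of the 7 Dhh regions, 6 were promoters of neighbours, among them Kmt2d, Rhebl1 and Lmbr1l. One of these, 6.2 kb into the locus at chr15:98892237-98892529, lies within 1 kb of the start of the antisense gene Gm49442, within the span of Dhh and Rhebl1. It ranked 49042, 36676 and 22376 in WT and 17654, 20776 and 14712 in Pbrm1 cKO libraries. All 3 Pbrm1 cKO libraries were above all 3 WT libraries, and the difference was 0.97 ± 0.35 (SE; limma, adjusted p = 0.190). The Dhh region in its own intron, 2.8 kb from the start, was weaker, with ranks from 30074 to 63427 over the 6 libraries and overlapping groups.

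At Ptch1, which encodes the Hedgehog receptor, all 5 regions were promoters and none was distal. Some 36.0% of protein-coding genes had no distal region. The best region of its own lay 7.4 kb into the gene near an internal start, chr13:63565940-63566499, and ranked 27861, 29414 and 28529 in WT and 29723, 23859 and 22648 in Pbrm1 cKO libraries. The groups overlapped, with a difference of 0.18 ± 0.25 (SE; limma over genes, adjusted p = 0.918). The region at the outermost Ptch1 start, chr13:63573336-63573873, was weak and in the WT list alone, with 20, 14 and 7 tags in WT and 14, 10 and 12 tags in Pbrm1 cKO libraries. The most open site of the locus, ranked 8673 to 12324, stood at the annotated start of A930032L01Rik, which overlaps Ptch1. A weak promoter region 10.1 kb into the gene ranked 56594, 51172 and 33082 in WT and 58519, 59424 and 63812 in Pbrm1 cKO libraries. It was the one Hedgehog promoter region of 14 (7.14%) whose groups did not overlap. The share was 13.7% for the best promoter region of each gene, and 21.4% over all regions, distal ones included. The score of this Ptch1 region was lower in Pbrm1 cKO by 0.40 ± 0.18 (SE; limma, adjusted p = 0.293).

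At Smo, which encodes the transducer that PTCH1 holds in check, the promoter and the upstream region had differences of opposite sign. Neither passed the threshold. The promoter region at the start, chr6:29735314-29735860, ranked 24274, 21590 and 11696 in WT and 9797, 11839 and 6935 in Pbrm1 cKO libraries. These ranks rest on 43, 41 and 38 tags in WT and 75, 60 and 81 tags in Pbrm1 cKO libraries. WT library 3 stood slightly above Pbrm1 cKO library 2, and the other libraries separated. The difference of 0.98 ± 0.36 (SE; 95% interval 0.22 to 1.74) was the largest among the 5 Hedgehog promoters, and it did not pass over all 13768 genes with a promoter region (limma, adjusted p = 0.495), of which 0.0508% passed. Smo was the one Hedgehog promoter of 5 with an unadjusted p under 0.05, against 7.77% of genes.

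The next region, 0.80 kb into Smo, did not follow. It ranked 16641, 23903 and 12340 in WT and 24743, 18537 and 31482 in Pbrm1 cKO libraries, with −0.52 ± 0.35 between the genotype means (SE; limma, adjusted p = 0.496). The start outranked this second region in 2 of 3 WT and in all 3 Pbrm1 cKO libraries.

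The intergenic region 16.4 kb upstream of Smo, which holds the GLI motif shown above, ranked 16404, 25876 and 23236 in WT and 44488, 44914 and 56068 in Pbrm1 cKO libraries. All WT libraries were above all Pbrm1 cKO libraries, and the difference of −1.17 ± 0.31 (SE; 95% interval −1.81 to −0.52) had an adjusted p of 0.102 by limma. The tags were 45, 30 and 19 in WT and 21, 19 and 14 in Pbrm1 cKO libraries, so that the shallow WT library 3 lay within the Pbrm1 cKO range in tags but not in rank. A neighbouring region, 16 kb upstream and in the WT list alone, was lower by 0.43 ± 0.17 (SE; limma, adjusted p = 0.235), again without overlap. Over its 4 distal regions Smo had mean scores of 1.00, 1.01 and 0.70 in WT and 0.57, 0.55 and 0.31 in Pbrm1 cKO libraries. The groups did not overlap, as in 24.1% of genes, and the difference was −0.42 ± 0.14 (limma, adjusted p = 0.167). Of these 4 regions, 2 were in the WT list alone and 0 in the Pbrm1 cKO list alone, which favours a lower mean in Pbrm1 cKO. Among all 14058 genes with a distal region 0.683% passed, and the median difference was 0.066. None of the 7 Hedgehog genes with distal regions passed (limma). Smo and Gli1 had an unadjusted p under 0.05, against 18% of all genes, and 1 of the 7 had one with the replicate number as a block.

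**Figure D2:**
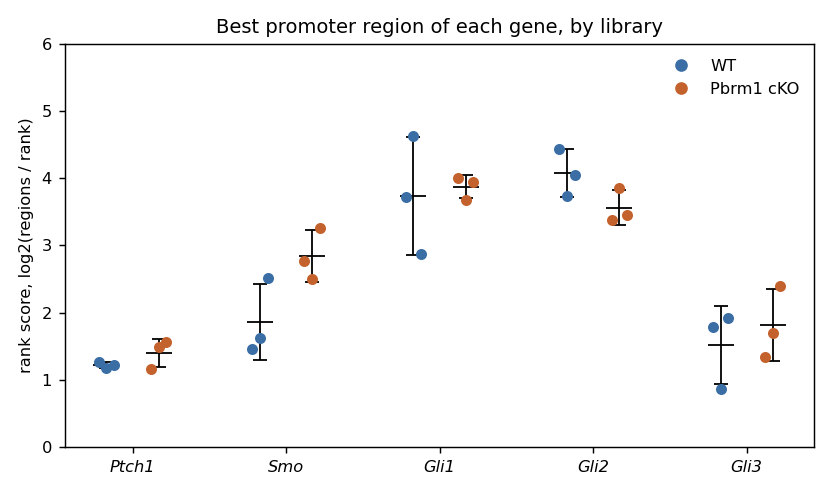
Rank score (vertical axis, log2 of regions over rank) of the best promoter region of each of the 5 Hedgehog genes that had one. Points are the 3 libraries of each genotype, and black bars show the mean and SD. Smo scored higher in Pbrm1 cKO by 0.98 with WT library 3 overlapping, and the other genes differed by less than 0.52.

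The promoters of the GLI genes, the transcription factors at the end of the pathway, did not separate the genotypes. Gli1, a target and an activator, had its best region 2.9 kb into the gene at chr10:127338917-127339181, near an internal start. It ranked 5033, 2704 and 9132 in WT and 4159, 5216 and 4336 in Pbrm1 cKO libraries, and the WT values spanned those of Pbrm1 cKO. The Gli2 start, chr1:119052714-119054022, ranked 3067, 4992 and 4020 in WT and 6398, 4606 and 6088 in Pbrm1 cKO libraries, and 1 Pbrm1 cKO library lay inside the WT range. The Gli3 start, chr13:15462794-15463428, was less open, with ranks of 19296, 36816 and 17636 in WT and 26324, 20592 and 12634 in Pbrm1 cKO libraries. It coincides with the start of Gm6556, and the lists do not show strand. The differences were 0.13 ± 0.49 for Gli1, −0.51 ± 0.44 for Gli2 and 0.29 ± 0.34 for Gli3 (SE; limma over genes, adjusted p = 0.971, 0.835 and 0.890). In order of mean level, Gli2 and Gli1 stood above Smo, Gli3 and Ptch1, and each gene overlapped its neighbour in that order over the libraries.

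Gli1 had 3 distal regions, all lower in Pbrm1 cKO in sign, against 48.0% of all distal regions. The most open, 8.8 kb upstream over an exon of Inhbe, ranked 17114, 31673 and 22052 in WT and 23995, 17620 and 30722 in Pbrm1 cKO libraries, with full overlap. A pair in the WT list alone lay over exons of the neighbouring gene Arhgap9, 15.5 and 15 kb downstream of the Gli1 start. The second, chr10:127326713-127327218, ranked 30986, 38738 and 40866 in WT and 65018, 63837 and 58043 in Pbrm1 cKO libraries, with 31, 23 and 13 against 11, 12 and 15 tags. The ranks did not overlap, and the difference was −0.77 ± 0.19 (SE; limma, adjusted p = 0.0932). In WT library 1 a single entry covered both regions of the pair. The distal mean of Gli1 was 1.39, 0.74 and 0.88 in WT and 0.52, 0.70 and 0.51 in Pbrm1 cKO libraries, without overlap, as in 24.1% of genes (difference −0.43 ± 0.18; limma, adjusted p = 0.260). Of the 3 regions in that mean, 2 were in the WT list alone and 0 in the Pbrm1 cKO list alone, which favours a lower mean in Pbrm1 cKO. The difference was −0.23 without WT library 1, and −0.040 with promoters widened to 3 kb, which left the region 8.8 kb upstream alone.

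Gli2, the main activator in many tissues, had 14 distal regions, of which 12 were lower in Pbrm1 cKO in sign, against 48.0% of all distal regions. Of the 14, 5 were in the WT list alone and 1 in the Pbrm1 cKO list alone, which favours a negative sign. The most open of the 14 was intronic, 76.8 kb from the start, and the best-ranked 1.97% of regions stood above it. It ranked 909, 447 and 2118 in WT and 1515, 2326 and 2398 in Pbrm1 cKO libraries, with WT library 3 inside the Pbrm1 cKO range. The difference was −1.10 ± 0.63 (SE; 95% interval −2.42 to 0.22; limma, adjusted p = 0.411), the widest interval of the locus. It was −0.55 without WT library 2 and −1.68 without WT library 3. A region 11.5 kb upstream of Gli2, in the WT list alone, ranked 32450, 34830 and 43294 in WT and 54129, 62280 and 62894 in Pbrm1 cKO libraries. It was lower by 0.71 ± 0.20 without overlap (limma, adjusted p = 0.116). An intronic region 179.8 kb from the start ranked 34345, 36570 and 27525 in WT and 49839, 52496 and 59121 in Pbrm1 cKO libraries, also without overlap (−0.72 ± 0.24; limma, adjusted p = 0.157).

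The whole Gli2 locus had 60, 57 and 51 listed intervals in WT and 47, 53 and 47 in Pbrm1 cKO libraries. The groups overlapped at WT library 3 and Pbrm1 cKO library 2, and the difference of −0.19 ± 0.10 in log2(intervals + 1) did not pass (limma, adjusted p = 0.612). The Gli2 distal mean scores were 1.49, 1.5 and 1.32 in WT and 1.30, 1.18 and 1.11 in Pbrm1 cKO libraries, without overlap, as in 24.1% of genes (−0.25 ± 0.13; limma, adjusted p = 0.381).

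Gli3, which acts mainly as a repressor, had 16 distal regions, 9 higher and 7 lower in Pbrm1 cKO in sign. The regions of the locus with the smallest p went in both directions, and none passed the threshold. The intronic region 83.1 kb from the start, in the WT list alone, ranked 43178, 22096 and 36159 in WT and 60762, 64074 and 61695 in Pbrm1 cKO libraries. The intronic region 87.8 kb from the start, in the Pbrm1 cKO list alone, ranked 65595, 65790 and 58896 in WT and 40220, 34361 and 42897 in Pbrm1 cKO libraries. Neither pair of groups overlapped.

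The first rested on 19, 30 and 13 tags in WT and 15, 11 and 11 in Pbrm1 cKO libraries, and the second on 7 tags in each WT library and 22, 22 and 18 in Pbrm1 cKO libraries. The differences were −0.93 ± 0.24 and 0.70 ± 0.17 (SE; limma, adjusted p = 0.102 and 0.0902), the latter the smallest adjusted p of all 70 regions. Each of the pair entered the comparison only through the list of the genotype where it ranked better. That route favours a difference and a small p, so neither value is independent of the choice. The first window held no GLI or AP-1 motif and the second held an AP-1 motif. Of all distal windows of 200 bp, 43.7% held an AP-1 motif.

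At 186.3 kb into Gli3 a region within 1 kb of the pseudogene Gm48343 was in the Pbrm1 cKO list alone. It had an entry in 1 WT library, at rank 63990, and ranked 36526, 29954 and 56802 in Pbrm1 cKO libraries (difference 0.73 ± 0.20; limma, adjusted p = 0.110). Like the pair above, it entered only through the genotype where it ranked better, which favours a difference and a small p. Beyond the 3' end, 279.8 kb from the start, a region ranked 43387, 35232 and 40582 in WT and 26384, 21410 and 21439 in Pbrm1 cKO libraries, without overlap (0.79 ± 0.30; limma, adjusted p = 0.216). The adjacent region, 278.7 kb from the start, was the most open distal region of Gli3 and ranked 8511, 7384 and 14437 in WT and 7686, 12740 and 6310 in Pbrm1 cKO libraries, with full overlap. Averaged over its distal regions Gli3 differed by 0.061 ± 0.12 (limma, adjusted p = 0.834).

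**Figure D3:**
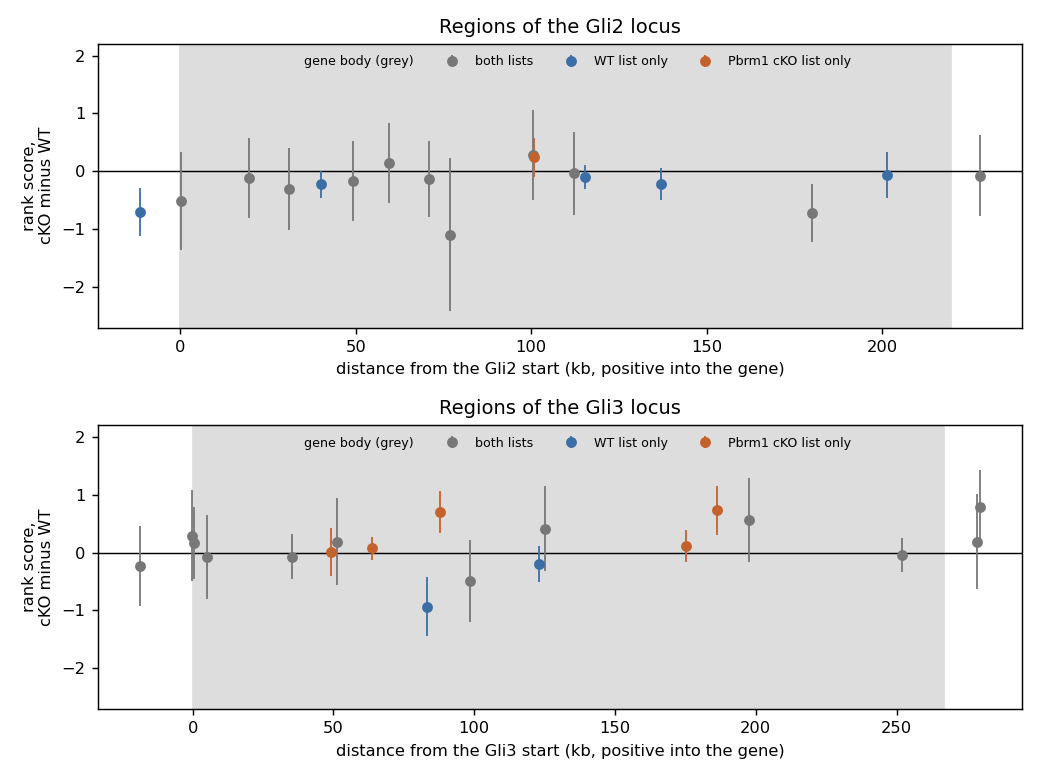
Difference in rank score (Pbrm1 cKO minus WT, vertical axis) against distance from the start (kb) for the 17 Gli2 and 19 Gli3 regions. Points are limma estimates with 95% intervals, coloured by the list that held the region, and the gene body is grey. Gli3 shows a region at 83.1 kb below 0 and one at 87.8 kb above 0.

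**Figure D4:**
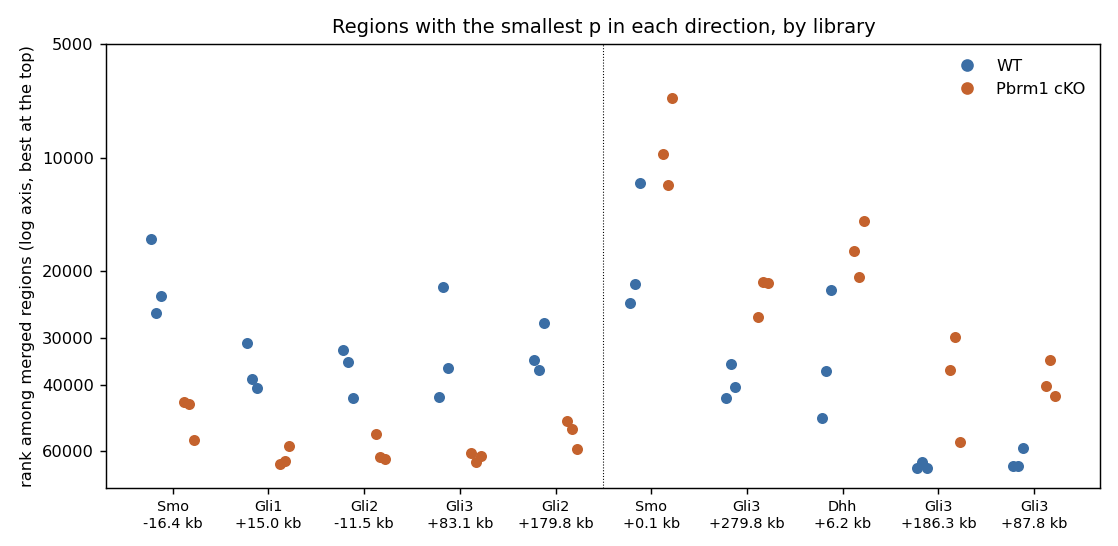
Rank (log axis, best at the top) in each library of the 5 regions with the smallest p below 0 (left) and above 0 (right), named by gene and distance from the start. A library without an entry is drawn at the lowest rank, 66679. In 9 of the 10 regions all WT points lie apart from all Pbrm1 cKO points, and the exception is the Smo start. The choice by small p favours such separation, and the groups did not overlap in 21.4% of all regions.

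Presence in a single list did not always mean separate ranks. Of the WT list alone, the groups were apart at Smo 16 kb upstream, Gli1 15.5 and 15 kb and Gli3 83.1 kb. They were also apart at Gli2 11.5 kb upstream and 40.1 kb into the gene. Of the Pbrm1 cKO list alone, they were apart at Ihh 2.9 kb and Gli3 87.8 and 186.3 kb. All other regions of a single list overlapped. The best-ranked 3 regions of the WT list alone were at the Kmt2d end of the Dhh locus, 16.5 kb upstream of Ihh in an exon of Nhej1, and 8.7 kb into Ptch1, and all 3 overlapped between genotypes. The first ranked 33860, 52102 and 44780 in WT and 46914, 61168 and 7443 in Pbrm1 cKO libraries, where the last value came from a single wide entry shared with the next region. The Ihh region ranked 46990, 27876 and 31674 in WT and 37198, 61822 and 41806 in Pbrm1 cKO libraries, and the Ptch1 region 30607, 43791 and 41394 against 63374, 48573 and 33776. Of the best-ranked 3 of the Pbrm1 cKO list alone, the Shh region and the Gli3 intronic region at 49.0 kb overlapped, and the Gli3 region at 87.8 kb did not. The Gli3 region at 49.0 kb ranked 41316, 57828 and 47515 in WT and 41461, 51246 and 52410 in Pbrm1 cKO libraries.

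Hhip, whose product sequesters the ligands, had no region in either reproducible list. Its starts still carried weak entries in all 6 libraries, with 11, 13 and 8 tags in WT and 12, 9 and 14 tags in Pbrm1 cKO libraries. Against 3.48 listed intervals per 10 kb at Dhh, 3.46 at Gli1 and 0.99 at Shh, Hhip had 0.34, the lowest of the 9 loci. Its counts of 6, 3 and 2 in WT and 3, 5 and 8 in Pbrm1 cKO libraries overlapped. At none of the 9 loci did the interval counts of the genotypes separate, against 9.25% of all loci.

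The sequence of the regions was then compared with that of all regions, in windows of 300 bp and on both strands. The GLI motif GACCACCCA was in 2 of 70 Hedgehog windows and in 0.205% of all windows. Over whole regions it was in 3 of 70 (4.29%) and in 0.424% of all regions. The 3 were the Smo upstream region, the best Ptch1 promoter region and the region at the outermost Ptch1 start, where it lies at chr13:63573465-63573473. A match is a stretch of letters and not a measured binding site.

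The AP-1 motif, which reads the same on both strands, was in 16 of 43 Hedgehog distal windows (37.2%) and in 47.0% of all distal windows. TEAD (GGAATG) was in 20.9% of Hedgehog distal windows and 23.9% of all distal windows, and the CArG box, bound by SRF, was in 1 of 43 against 1.91%. The CTCF core motif was in 1 of 70 windows against 6.98% of all windows, and the palindromic motif of the progesterone and glucocorticoid receptors was in 0 of 70 against 0.535%. The distal windows had a median GC content of 51.3%, against 47.7% over all distal windows, and a CpG observed to expected ratio of 0.234 against 0.224.

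Among other Hedgehog genes, 30 of 34 pathway genes had a promoter region and none passed the threshold in either direction (limma). At an unadjusted p under 0.05, 2 were higher and 0 lower, against 3.04% and 4.74% of all genes (7.77% in either direction), and the median difference was 0.060 against −0.024 over all genes. Prkaca, which encodes a catalytic subunit of protein kinase A, the kinase that marks GLI proteins for processing, ranked 1494, 4465 and 3252 in WT and 332, 689 and 162 in Pbrm1 cKO libraries. The groups did not overlap, as in 13.7% of genes, and the difference was 3.06 ± 0.77 (SE; limma, adjusted p = 0.163). Prkacb, a second catalytic subunit, differed by 1.00 and Scube1, of a family of secreted proteins that helps ligand release, by 0.94, both with overlap. The largest negative differences were −0.75 for the glypican gene Gpc5, −0.52 for Cul3, a ubiquitin ligase scaffold, and −0.38 for Lrp2, which encodes the endocytic receptor megalin, and these also overlapped.

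Of 16 genes known as targets in other tissues, 12 had a promoter region and none passed (limma). An unadjusted p under 0.05 was reached at Mycn and Osr1, against 7.77% of all genes. Mycn ranked 43189, 48228 and 59067 in WT and 29800, 24953 and 22410 in Pbrm1 cKO libraries, without overlap, as in 13.7% of genes (0.96 ± 0.24; limma, adjusted p = 0.163). Bmp4 differed by 0.69 and Ccnd1 by 0.51, and Osr1, Ccnd2 and Foxc2 by −0.73, −0.42 and −0.23, all with overlap. Of the distal scores, 0 of 28 pathway genes and 0 of 13 targets passed, and Foxf1 (0.48) and Ccnd2 (0.37) had an unadjusted p under 0.05, as did 18% of all genes. The 3 genes whose best promoter was most like that of Smo over the 6 libraries were Prkar2b, Cabp1 and Dvl1, with Euclidean distances of 0.470, 0.523 and 0.595 in rank score.

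The labelled cell type was checked with marker promoters. A region was found at 7 of 8 smooth muscle markers (not at Myocd), 4 of 6 fibroblast, 4 of 5 endothelial, 2 of 5 immune and 1 of 8 epithelial markers, the last being Foxj1. The mean promoter score of the smooth muscle markers was 1.36 to 1.52 in WT and 1.24 to 1.44 in Pbrm1 cKO libraries, and that of the fibroblast markers 0.88 to 1.21 and 1.02 to 1.24. The endothelial markers scored 0.96 to 1.45 and 0.85 to 1.33, the 2 immune markers 1.00 to 1.82 and 0.97 to 1.25, and Foxj1, a gene of ciliated epithelium, 3.58 to 4.13 and 3.20 to 4.62. The median over all 13768 genes with a promoter region was 3.11. The smooth muscle promoters lay below that median, and their range overlapped those of the endothelial and immune markers, so these ranks did not single out muscle. None of these promoters passed between genotypes or had an unadjusted p under 0.05 (limma). Of the marker distal scores none passed either (limma). The endothelial Emcn (−1.23 ± 0.27; limma, adjusted p = 0.0782) and the epithelial Pax8 (−0.39) and Cdh1 (0.38) had an unadjusted p under 0.05, as did 18% of all genes. The part of other cell types in the values above was not tested.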

How the data were processed

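ATAC-seq peak lists of 6 libraries (3 WT, 3 Pbrm1 cKO, grouped by sample title) were used. Per the study's methods, the authors ran the ENCODE ATAC-seq pipeline 1.9.0 on GRCm38, and the submitters' processing notes name cutadapt, Bowtie2 and MACS2. The authors deposited a list per library, relaxed to a p of 0.01 with at most 300000 entries, and a conservative list per genotype at an IDR (irreproducible discovery rate) of 0.05, which holds no replicates. Each entry holds the authors' fold enrichment (a ratio) of the summit over local background, the authors' −log10 p and, in library lists, −log10 q. The deposited score column, a rescaled p or IDR, was not used. Read counts were not used here, so the ranks stand in for the read-count test of the study, and a uniform shift of a whole library cannot be seen. Total reads are unknown.

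The genotype lists were merged (overlap of at least 1 bp) into 66679 regions, and limma 3.58.1 in R 4.3.3 (trend, two-sided, Benjamini-Hochberg over all regions or genes, threshold 0.05) was fitted to rank scores. Regions without an entry took the lowest rank and ties were averaged. A region in the list of a single genotype entered through that genotype alone, which favours a difference in its direction and a smaller p. A gene's promoter score is that of its best promoter region (within 1 kb of a start), its distal score the mean of its distal regions, and intervals are distinct listed intervals over the locus. Library lists were not equally deep. Tags were accepted where fold and p gave a whole number within 0.02. Intervals cover the spread between libraries only. Starts came from GENCODE M21, and coordinates count from 1. The fits were tried on simulated scores with normal noise, not on simulated ranks. The shifts added there were larger than any Hedgehog difference, so shifts of the size seen here were not tried.

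The members, gene lists and named regions were chosen with earlier results of these data known. Named were each gene's best promoter and distal region by mean score, the 5 regions with the smallest p in each direction, any passing region and the best 3 of each genotype's own list. Beyond these, neighbouring regions were named after their values were seen. Alternatives changed the rank scale, the column ranked, the handling of missing entries, distances, list limits, the motif window, the replicate block and the libraries.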

Additional observations from a re-analysis of the deposited data

How the results depend on the processing

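Of 32 single regions or genes, 22 kept their direction in every alternative run, and of 417 alternative values 25 changed direction and 11 passed the threshold. Leaving out 1 library moved the difference of 17 of the 32 by over 1.5 times or across 0. In the settings that were planned, no Hedgehog region, promoter, distal mean or interval count passed the threshold. With normal scores and missing entries ranked after the last, a setting chosen after seeing the data, 2 regions were higher and 3 lower. The same without WT library 3 gave 5 higher and 2 lower. The cause of the change was not tested.

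Replicate numbers did not pair the libraries (correlations of same-numbered deviations −0.0028, −0.055 and 0.0093), and with the replicate number as a block 0 regions passed, with a smallest adjusted p by limma of 0.0813.

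Ranks by fold turned the Gli1 distal region 8.8 kb upstream to 0.062, the Gli3 region at 49.0 kb to −0.053, the Ihh distal mean to 0.019 and the promoters of Ptch1, Gli1 and Gli3 to −0.18, −0.062 and −0.057. The Ihh distal mean was 0.70 with normal scores and 0.15 with missing entries ranked after the last as well. In that setting without WT library 3, Gli1 at 8.8 kb gave 0.0044 and Gli3 at 278.7 kb −0.052. Leaving out 1 library at a time gave −0.18 to 0.26 for Ihh 13.0 kb upstream, −0.32 to 1.20 for the Kmt2d neighbour region in the Dhh locus (WT list only), −0.27 to 0.17 for Gli1 at 8.8 kb, −0.12 to 0.12 for Gli3 at 49.0 kb and −0.10 to 0.48 for Gli3 at 278.7 kb. For gene values the ranges were −0.098 to 0.089 for Ihh distal, −0.47 to 0.037 for Dhh distal, −0.30 to 0.58 for the Gli1 promoter and −0.042 to 0.53 for the Gli3 promoter.

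Without the added 20 kb, 28 regions were in both lists, 10 in the WT list alone and 8 in the Pbrm1 cKO list alone. Among entries above the median −log10 p of each list 8 were in the WT list alone and 2 in the Pbrm1 cKO list alone. TEAD motifs were in 23 of 70 windows (32.9%) at 500 bp against 13 (18.6%) at 300 bp, and in 29.0% and 20.7% of all windows. In distal windows of 500 bp the Hedgehog share was 34.9%, above the 32.5% of all distal windows, whereas at 300 bp it was below. Weak entries rest on as few as 5 tags, so a region without an entry is below that list's threshold and not shown to be closed.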
